A study of Mus musculus with 3 samples.

Results

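Glycolysis turns glucose into pyruvate, and lactate dehydrogenase passes pyruvate on to lactate. The 10 genes described here were chosen by name: Slc2a1, the glucose transporter GLUT1, Hk1 and Hk2, the hexokinases that phosphorylate glucose, Aldoa, Tpi1, Gapdh, Pgk1, Eno1 and Pkm, which carry out later steps to pyruvate, and Ldha, the lactate dehydrogenase subunit that prevails in cells of high glycolytic rate. They are 10 of 54838 genes listed in the deposited files, and all 10 had counts in the tissue of every section. Their transcripts were compared between thymus sections of mice without p53 and of a wild-type mouse, across T-cell tissue, medulla, B-cell zones and fat.

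Sections came from 2 Trp53-/- (KO) mice and 1 Trp53+/+ (WT) mouse, all female C57BL/6. The labels give 17 weeks for mouse KO1134, 21 weeks for mouse KO1308 and 17 weeks for mouse WT1101. The KO genotype is constitutive, so T cells, epithelium and fat carry it alike. All animals were anaesthetised with pentobarbital and perfused with cold saline before the thymus was frozen. The labels do not say which part of Trp53 was deleted. Sections are named by their labels, and whether these names are those of the mice was not tested.

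Polyadenylated RNA was captured on slides with barcoded spots 4.8 µm apart and counted through unique molecular identifiers (UMIs), so that each captured transcript counts once. The deposited counts summed to 31237062 UMIs in KO1134, 21089885 in KO1308 and 41581477 in WT1101. Counts of neighbouring spots were added up in squares of 27 µm, called bins. Bins with at least 300 genes and at most 30% mitochondrial UMIs that lay in connected tissue were kept, which left 12009, 16140 and 27104 bins with a mean of 2591, 1090 and 1497 UMIs. A bin may hold several cells, and its mean of 6.71, 2.12 and 3.45 UMIs of the 10 genes is too few for values of single bins. Levels are therefore sums over many bins, scaled to 1000000 UMIs of those bins (CPM).

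Medulla, B-cell zone and fat were bins whose surrounding 5 × 5 bins held at least 2 times the mean level of markers of medullary epithelium, B cells or adipocytes. CD3-positive bins were those outside these areas in which any of Cd3d, Cd3e and Cd3g, scaled to 10000 UMIs in the bin, passed 2 as ln(1 + x). There were 1752 CD3-positive bins in KO1134, 3459 in KO1308 and 15957 in WT1101. Medulla took 1616, 6279 and 1861 bins, and the B-cell zone took 1929, 1049 and 303. Fat took 1803 and 1477 bins of the KO sections but 72 bins of WT1101, where only 95423 UMIs lay behind its values. Krt5, Cd79a and Adipoq were highest in their own areas, with Krt5 at 403, 587 and 334 CPM in medulla, Cd79a at 447, 236 and 214 CPM in B-cell zones and Adipoq at 629, 685 and 147 CPM in fat. These genes are among the markers that set the areas, so the choice of bins sets this and it is no check of the areas.

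Trp53 itself was at 12.9 CPM in KO1134, 22.5 CPM in KO1308 and 79.9 CPM in WT1101 in CD3-positive bins, so both KO sections were below WT. The CD3-positive tissue of the KO sections was not alike. The 5 cortex markers summed to 770 CPM in KO1134, against 1902 in KO1308 and 1979 in WT1101. Cd8b1, a coreceptor chain of cortical thymocytes, was at 50.1, 806 and 1187 CPM. Arpp21, at 88.2, 307 and 319 CPM, and Ptcra, at 3.55, 14.7 and 16.6 CPM, were also lowest in KO1134. Not all cortex markers went this way. Prss16, at 458, 623 and 338 CPM, and Psmb11, at 170, 151 and 117 CPM, were above WT in both KO sections. Cycling markers summed to 977, 1591 and 1544 CPM and myeloid markers to 1269, 680 and 635 CPM. KO1134 thus stood apart from the other sections in the sums of these lists, and the part of cell composition in the results below was not tested. Fewer cells of a type and less RNA per cell cannot be told apart in such sums. The study also used different permeabilisation times for KO and WT sections, and this cannot be told apart from genotype.

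**Figure D1:**
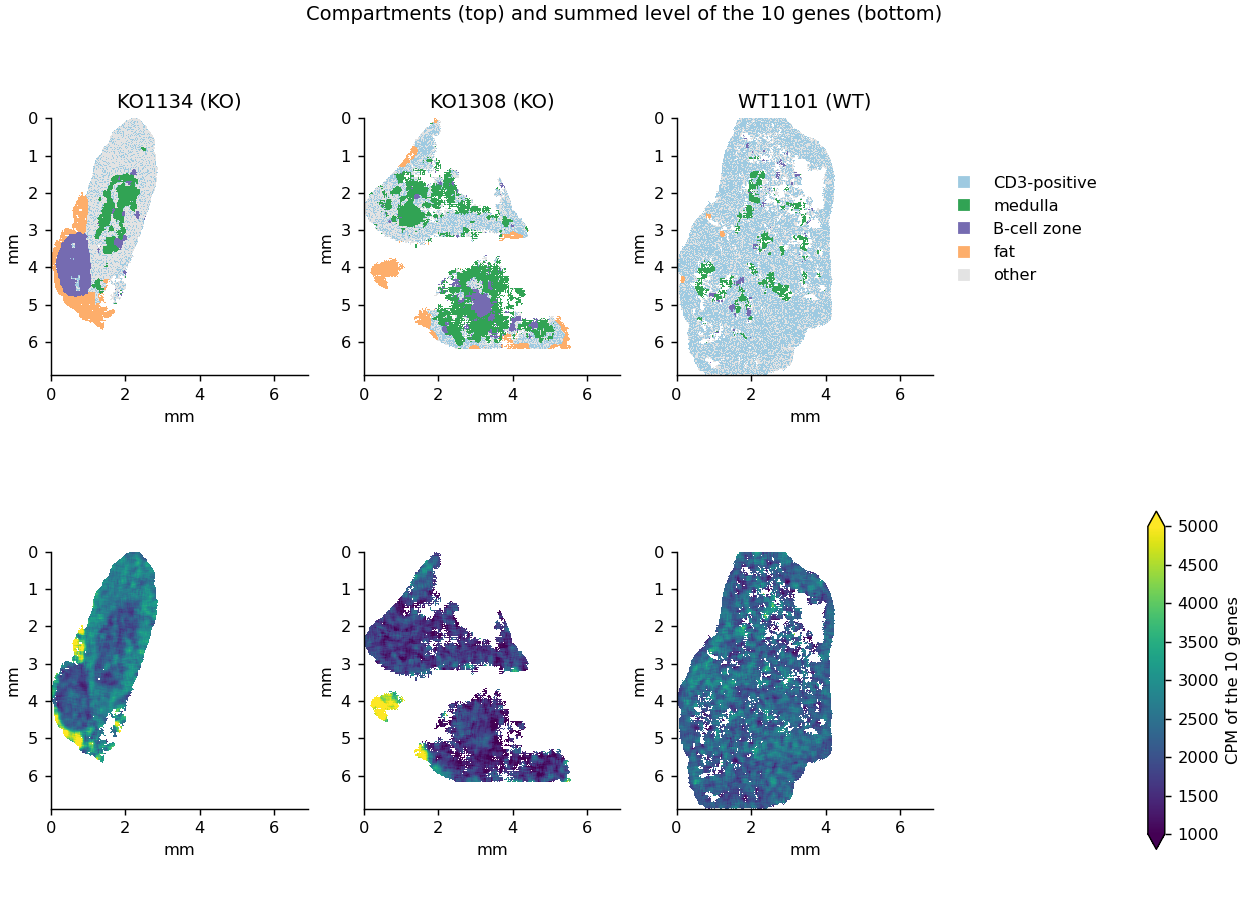
Each pixel is a 27 µm bin and axes are in mm. The upper row colours bins by compartment and the lower row by the summed CPM of the 10 genes in the surrounding 5 × 5 bins, on a colour scale that ends at 1000 and 5000; KO1308 was lowest over its thymus (1861 CPM in CD3-positive bins), and the highest values lay in the fat of the KO sections (3675 and 3935 CPM).

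Both hexokinases catalyse the same first step, but Hk1 is the form of most tissues, whereas Hk2 is known from muscle, fat and tumours and is induced by insulin and by hypoxia-inducible factors (HIF). p53 is known to restrain glucose uptake and glycolysis through its targets, among them Tigar, and by repression of glucose transporters. Many glycolysis genes carry short HIF-binding letters near their start. The bases upstream of the 10 genes were therefore read for the HIF core letters ACGTG and GCGTG, the E-box CACGTG, which contains ACGTG and is read by Myc and related factors, and the GC box GGGCGG, on both strands. All 10 genes were matched in RefSeq (GRCm38.p6), with 250 bases before 1 start of each. Hk1, Pkm and Ldha each had 2 starts listed, and Aldoa and Eno1 each had 3. The bases before their other starts were not read, so the matches below hold for the stretch read only. Of these 10 stretches, 6 overlap no annotated exon of GENCODE M21. Those of Slc2a1, Aldoa, Tpi1 and Pkm do overlap an exon, and that of Aldoa also overlaps the gene Fam57b. The stretch of Gapdh lies within the annotated Gapdh gene.

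ACGTG was found before Slc2a1, Hk2, Pgk1 and Ldha, 4 of 10 genes, and in 16.6% of all 27025 promoters of the same length. GCGTG was found before Slc2a1, Gapdh and Eno1, against 28.2% of all promoters. The E-box lay before Ldha alone among the 10 genes, against 6.05% of all promoters. The GC box lay before 6 of the genes, Slc2a1, Hk2, Tpi1, Pgk1, Pkm and Ldha, against 32.9% of all promoters. These matches describe letters and say nothing of binding.

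The promoters of both hexokinases and of Ldha are shown, because the hexokinase pair parted between fat and T-cell tissue and Ldha held the most UMIs. Capitals mark the HIF core letters on either strand. None of the 3 stretches overlaps an annotated exon of GENCODE M21, and that of Ldha lies in an intron of a longer Ldha model. Hk1 lies on the minus strand, with these bases at chr10:62379909-62380158, Hk2 on the minus strand at chr6:82774455-82774704 and Ldha on the plus strand at chr7:46845554-46845803.
Hk1: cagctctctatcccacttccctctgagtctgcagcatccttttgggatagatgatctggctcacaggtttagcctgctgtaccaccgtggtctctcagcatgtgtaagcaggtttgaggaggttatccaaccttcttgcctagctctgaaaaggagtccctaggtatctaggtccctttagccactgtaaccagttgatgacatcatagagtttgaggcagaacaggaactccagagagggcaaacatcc
Hk2: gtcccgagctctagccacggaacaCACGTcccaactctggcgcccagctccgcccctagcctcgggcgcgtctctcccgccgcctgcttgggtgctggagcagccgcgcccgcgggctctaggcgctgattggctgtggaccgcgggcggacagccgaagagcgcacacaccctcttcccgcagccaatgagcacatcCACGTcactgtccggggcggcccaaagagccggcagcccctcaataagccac
Ldha: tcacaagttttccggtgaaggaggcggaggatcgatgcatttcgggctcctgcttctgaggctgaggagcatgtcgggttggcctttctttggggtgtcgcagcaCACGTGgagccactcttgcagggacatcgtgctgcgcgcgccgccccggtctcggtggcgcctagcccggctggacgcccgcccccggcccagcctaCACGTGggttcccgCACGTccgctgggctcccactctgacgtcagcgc
The Hk1 stretch held no match and 49.6% G or C, the Hk2 stretch 2 matches and 69.6%, and the Ldha stretch 5 ACGTG matches, counted on both strands, and 67.2%. An E-box reads the same on both strands, so each of the 2 before Ldha counts for 2 of these matches.

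In CD3-positive bins the 10 genes summed to 2727 CPM (2679 to 2775) in KO1134, 1861 (1820 to 1902) in KO1308 and 2315 (2296 to 2334) in WT1101, with 95% intervals from counting in brackets. KO1134 was therefore 1.18-fold of WT (1.16 to 1.20) and KO1308 0.804-fold (0.785 to 0.823). The KO sections lay on either side of WT and were 1.47-fold apart from each other (1.42 to 1.51), more than each was from WT. With 1 WT section there was no test between genotypes, no p-value is given, and all intervals cover counting error only. The rest of the tissue outside the 3 areas, where no CD3 gene passed the limit, gave 2742, 1835 and 2290 CPM, in the same order.

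When the CD3-positive bins of each section were split in 4 parts by position, the sum ranged from 2588 to 2865 CPM in KO1134, 1751 to 2030 in KO1308 and 2250 to 2369 in WT1101. The sections did not overlap in any part. The difference between sections was thus larger than the spread within each. By distance from the outer tissue edge, Gapdh of WT1101 was at 501 CPM (477 to 525) within 100 µm and at 419 CPM (409 to 430) beyond 400 µm. Ldha went the other way there, with 906 CPM (874 to 938) at the edge and 1004 CPM (988 to 1021) inside. In KO1134, Ldha was at 1513 CPM (1420 to 1611) at the edge and 1260 CPM (1210 to 1312) inside, opposite to WT1101. In KO1308, Ldha was at 779 CPM (721 to 840) at the edge and 736 CPM (661 to 817) inside, with intervals that overlapped. Gapdh overlapped between edge and inside in both KO sections, at 313 and 339 CPM in KO1134 and 215 and 212 CPM in KO1308.

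Of the 10 genes, 6 were above WT in KO1134, where 51.5% of 13382 genes with enough counts were, and 4 were above WT in KO1308, where 60.1% of 13620 genes were. The median ratio of the 10 genes was 1.26 in KO1134, beside 1.02 over all genes, and 0.927 in KO1308, beside 1.10. Past 1.5-fold, Hk1 and Hk2 were higher in KO1134, where 24.6% of 17308 genes passed that limit, and Eno1 was lower, where 21.7% did. Eno1 did not pass with bins of 50 µm or with areas called at 3 times the marker level, whereas Aldoa and Ldha passed upward when ribosomal protein, mitochondrial, immunoglobulin and haemoglobin genes were left out of the total. In KO1308, Tpi1 was higher, where 26.4% of 17297 genes were, and Gapdh was lower, where 11.4% were. These shares of the 10 genes are near those of all genes. The shares of all genes take in every gene with 20 UMIs in either section. Genes sparse in the other section pass the limit more easily by counting error. The genes called differed between the KO sections, and in CD3-positive bins no member was past 1.5-fold the same way in both at these settings. Hk2 was past it upward in both under 4 other settings, which were bins of 20 µm, windows of 3 × 3 bins, areas at 3 times the marker level and CD3-positive bins called from 1 UMI.

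**Figure D2:**
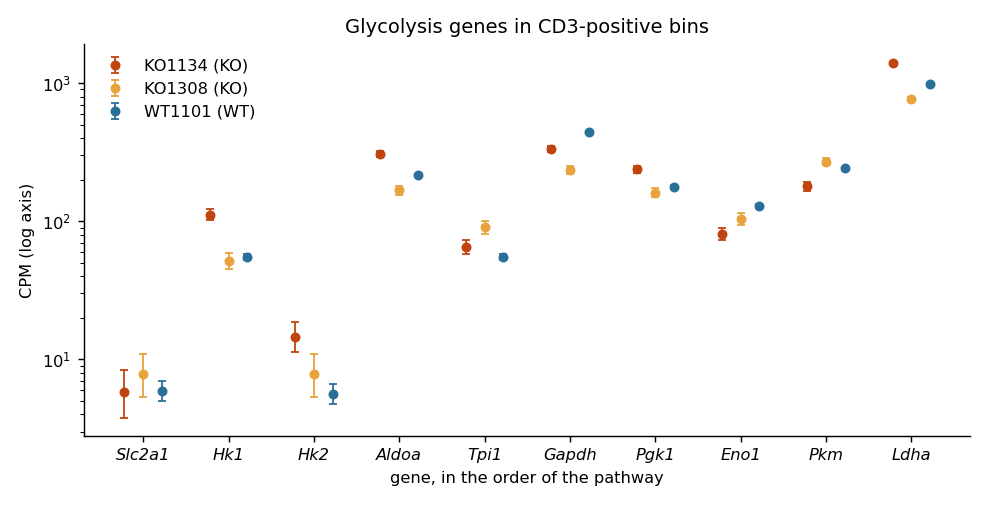
CPM of each gene in CD3-positive bins on a log axis, 1 point for each section with its 95% exact Poisson interval. Gapdh and Eno1 lay below WT in both KO sections and Tpi1 above it, while Ldha was at 1392, 766 and 985 CPM in KO1134, KO1308 and WT1101.

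Slc2a1 brings glucose into the cell. It was sparse, with 5.76 CPM in KO1134, 7.82 in KO1308 and 5.94 in WT1101 from 26, 33 and 152 UMIs, and the intervals of all sections overlapped. Hk1 was at 112 CPM (102 to 122) in KO1134, 51.9 (45.2 to 59.2) in KO1308 and 54.8 (52.0 to 57.8) in WT1101. Its level in KO1134 was 2.04-fold of WT, whereas KO1308 and WT overlapped. Hk1os, an antisense gene on the other strand, had 125, 26 and 147 UMIs in the tissue against 2777, 842 and 2225 of Hk1. Hk2 was at 14.6 CPM (11.3 to 18.6), 7.82 (5.38 to 10.98) and 5.62 (4.74 to 6.62), which is 2.60-fold of WT (1.91 to 3.51) in KO1134 and 1.39-fold (0.922 to 2.04) in KO1308.

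Aldolase, the product of Aldoa, splits the sugar before the steps that yield ATP. Aldoa was at 307 CPM (291 to 324) in KO1134, 168 (156 to 181) in KO1308 and 215 (210 to 221) in WT1101, so that WT lay between both KO sections. Tpi1, which interconverts the resulting trioses, was at 65.0 (57.7 to 72.8), 90.3 (81.4 to 99.8) and 55.3 (52.4 to 58.2) CPM. It was 1.18-fold and 1.63-fold of WT and so above WT in both KO sections, most in KO1308. In the rest of the tissue outside the areas it was at 0.952-fold (0.865 to 1.05) in KO1134 and 1.60-fold (1.42 to 1.80) in KO1308, so that the direction in KO1134 did not hold there.

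Gapdh oxidises triose phosphate and yields NADH. It was at 332 CPM (315 to 349) in KO1134, 234 (220 to 249) in KO1308 and 445 (437 to 453) in WT1101, and no intervals overlapped. At 0.746-fold (0.706 to 0.787) and 0.526-fold (0.493 to 0.562) of WT it was lower in both KO sections. It was also lower in the rest of the tissue outside the areas, at 0.731-fold and 0.486-fold. KO1134 differed elsewhere, with Gapdh at 1.23-fold of WT (1.09 to 1.39) in medulla and 1.01-fold (0.813 to 1.27) in B-cell zones, whereas KO1308 was at 0.697-fold (0.549 to 0.893) in B-cell zones. Pgk1, the next enzyme and the first to yield ATP, was at 238, 161 and 177 CPM, 1.35-fold (1.26 to 1.44) and 0.908-fold (0.837 to 0.985) of WT.

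Eno1, or enolase, was at 80.9 CPM (72.8 to 89.7) in KO1134, 104 (94.5 to 114) in KO1308 and 129 (125 to 133) in WT1101. It was 0.628-fold (0.562 to 0.699) and 0.807-fold (0.729 to 0.891) of WT, lower in both KO sections. Its level is uncertain, because the intronless copy Eno1b had 87.9%, 78.0% and 86.8% as many UMIs as Eno1, and reads of a near-identical copy may be shared between both. Eno1 and Eno1b together were at 0.652-fold (0.603 to 0.705) and 0.734-fold (0.679 to 0.792) of WT, so the direction did not rest on that split. Copies named after Aldoa, Tpi1, Gapdh, Pgk1 or Ldha held at most 0.162% as many UMIs as their parent gene. Copies under other names, and any copies of Slc2a1, Hk1, Hk2 and Pkm, were not counted.

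Pyruvate kinase, the product of Pkm, makes pyruvate. It was at 179 CPM (167 to 192), 269 (253 to 285) and 242 (236 to 248), or 0.740-fold and 1.11-fold of WT, so that KO1134 was low and KO1308 slightly high. The counts are per gene and do not part the splice forms of Pkm. Ldha was at 1392 CPM (1358 to 1427) in KO1134, 766 (740 to 793) in KO1308 and 985 (973 to 997) in WT1101. It was 1.41-fold (1.37 to 1.45) of WT in KO1134 and 0.778-fold (0.750 to 0.807) in KO1308. Ldha made up 51.1%, 41.2% and 42.6% of the UMIs of the 10 genes, and without it the other 9 genes summed to 1334, 1094 and 1330 CPM. The sum of KO1134 was thus above WT through Ldha, and that of KO1308 was low without it as well.

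CD3-positive bins with a UMI of Mki67 or Top2a, genes of dividing cells, were set beside the other CD3-positive bins. A single UMI does not part cycling from resting tissue, and in bins of 1000 to 2000 UMIs the other bins still held 294, 563 and 460 CPM of the 5 cycling markers in KO1134, KO1308 and WT1101, against 1454, 2098 and 1951 CPM, a contrast that the choice of bins sets in part. At that depth the 10 genes were at 1.04-fold (0.941 to 1.14) in bins with such a UMI over the others in KO1134, 0.959-fold (0.896 to 1.03) in KO1308 and 1.02-fold (0.997 to 1.05) in WT1101. At any depth the ratios were 1.06 (1.01 to 1.10), 1.02 (0.974 to 1.07) and 1.05 (1.04 to 1.07). At matched depth in WT1101, Tpi1 at 1.21-fold (1.01 to 1.45) and Gapdh at 1.16-fold (1.09 to 1.24) were past their counting interval. So were Aldoa at 0.857-fold (0.788 to 0.933) and Eno1 at 0.857-fold (0.767 to 0.957). In KO1308, Pkm was past it, at 0.818-fold (0.683 to 0.982). WT1101 had 7085 CD3-positive bins at this depth, against 430 in KO1134 and 1564 in KO1308, so its intervals were the narrowest. The share of all genes past such an interval is not given, so no result about these genes is drawn.

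Ldhb, the other main lactate dehydrogenase subunit, belongs to the genes of glycolysis outside the 10. In CD3-positive bins it was at 94.0 CPM in KO1134, 197 in KO1308 and 399 in WT1101, or 0.236-fold (0.213 to 0.260) and 0.493-fold (0.459 to 0.529) of WT. Both KO sections were below WT, KO1134 the most. Ldha made up 93.7% (93.1 to 94.2) of the UMIs of both genes in KO1134, 79.6% (78.3 to 80.8) in KO1308 and 71.2% (70.7 to 71.6) in WT1101. In medulla this share was 91.1%, 80.6% and 86.2%, so that KO1308 was below WT there. The medulla of WT1101 was 15.0 points above its CD3-positive bins, whereas the difference was -2.59 points in KO1134 and 0.984 points in KO1308. This share was computed after the values of Ldhb had been seen.

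**Figure D3:**
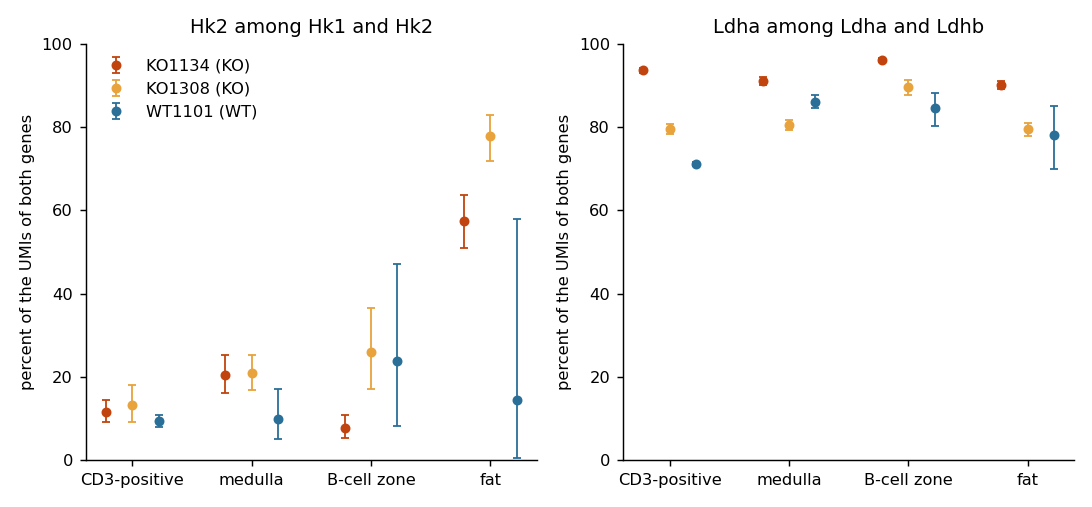
Points give the share of Hk2 among Hk1 and Hk2 UMIs (left) and of Ldha among Ldha and Ldhb UMIs (right) in 4 compartments of each section, with 95% exact binomial intervals. Hk2 reached 57.4% and 77.8% in the fat of the KO sections, and Ldha was lowest, at 71.2%, in CD3-positive bins of WT1101.

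The other 25 genes of glycolysis on the list comprise further isoenzymes, phosphofructokinases, regulators of fructose 2,6-bisphosphate and lactate carriers, and 13 of them had at least 20 UMIs in every section. Past 1.5-fold of WT in CD3-positive bins, 1 was higher and 4 lower in KO1134, and 0 were higher and 1 lower in KO1308. Over all genes 24.6% were higher and 21.7% lower in KO1134, and 26.4% and 11.4% in KO1308. The median ratios of the 13 genes were 1.09 and 1.10, beside 1.02 and 1.10 over all genes. The lowest were Ldhb and Pfkp, the platelet form of phosphofructokinase, at 82.3, 112 and 164 CPM or 0.502-fold and 0.686-fold. The highest were Pgam2, the muscle form of phosphoglycerate mutase, at 7.76, 5.92 and 4.45 CPM, and Pfkfb3, which raises phosphofructokinase activity, at 44.1, 43.1 and 31.2 CPM.

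Of 8 genes that link p53 to glucose use, 5 had enough UMIs. Tigar, a p53 target that lowers fructose 2,6-bisphosphate, did not, with 3.10, 3.79 and 3.94 CPM in KO1134, KO1308 and WT1101 from 14, 16 and 101 UMIs, and a difference was not detectable at this depth. Pdk2, a kinase that holds back pyruvate dehydrogenase, was at 13.3, 11.6 and 20.6 CPM, below WT in both KO sections. Rrad, a p53 target that limits glucose uptake, was at 9.75, 7.11 and 8.98 CPM. Slc2a4, the insulin-responsive transporter GLUT4, was at 5.32, 9.003 and 3.40 CPM, or 1.57-fold (0.953 to 2.48) and 2.65-fold (1.76 to 3.92) of WT, and the interval of KO1134 included 1. Adipocyte markers summed to 31.04, 78.4 and 5.58 CPM in the same bins, and their part in this was not tested.

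Of 11 genes induced by hypoxia, 8 had enough UMIs, with medians of 0.746-fold and 1.03-fold of WT. In KO1134, 1 was higher past 1.5-fold and 3 were lower, and in KO1308 1 was higher and 1 lower, beside 24.6% and 21.7% of all genes in KO1134 and 26.4% and 11.4% in KO1308. Ankrd37 was lowest, at 5.54, 10.2 and 24.6 CPM, followed by Pdk1 at 64.5, 102 and 112 CPM. Vegfa, the endothelial growth factor, was highest at 33.03, 23.5 and 18.2 CPM, followed by Egln3, an oxygen sensor, at 17.1, 30.3 and 16.6 CPM. Of 11 genes of pyruvate import and oxidation, 10 had enough UMIs, with medians of 0.933-fold and 0.829-fold. The list includes Pdk1, Pdk2, Pdk3 and Pdk4, kinases that hold back pyruvate dehydrogenase, so its medians mix genes of opposite effect. In KO1134, 1 was higher and 2 lower, and in KO1308 0 were higher and 2 lower, beside the same shares of all genes, 24.6% and 21.7%, and 26.4% and 11.4%. The highest were Pdk3, at 29.5, 20.1 and 16.5 CPM, and Cs, citrate synthase, at 134, 163 and 113 CPM, and the lowest were Pdk2 and Pdk1.

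In the medulla the 10 genes summed to 2049 CPM (2005 to 2094) in KO1134, 1549 (1516 to 1581) in KO1308 and 2287 (2214 to 2361) in WT1101. Both KO sections were below WT, at 0.896-fold (0.862 to 0.931) and 0.677-fold (0.652 to 0.704). These areas were not alike, and took 13.5%, 38.9% and 6.87% of the bins of KO1134, KO1308 and WT1101. Their medulla markers summed to 754, 843 and 759 CPM. T cell markers summed to 2050.5, 2964 and 4589 CPM and cortex markers to 339, 1043 and 641 CPM there. The part of this in the ratios to WT was not tested. Past 1.5-fold, Hk2 was higher in KO1134, where 15.9% of 14008 genes were, and none of the 10 was lower, where 15.3% were. In KO1308, Hk2 and Tpi1 were higher, where 22.2% of 15263 genes were, and Gapdh, Eno1 and Ldha were lower, where 10.1% were. The median of the 10 genes was 0.908-fold in KO1134, beside 0.909 over 10796 genes, and 0.781-fold in KO1308, beside 0.983 over 10837 genes. Hk1, high in CD3-positive bins of KO1134, was at 1.07-fold of WT (0.849 to 1.37) in its medulla, and Ldha at 0.864-fold (0.817 to 0.915). Hk2 rested on 67, 78 and 11 UMIs, or 16.7, 13.8 and 6.68 CPM.

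Within a section both compartments share the library but not the depth per bin. The mean UMIs per bin in medulla were 2486 in KO1134, 898 in KO1308 and 884 in WT1101, against 2574.5, 1220 and 1605 in CD3-positive bins. The sum in medulla was 0.751-fold (0.731 to 0.773) of that in CD3-positive bins in KO1134, 0.832-fold (0.807 to 0.858) in KO1308 and 0.988-fold (0.956 to 1.02) in WT1101. The sum in medulla was thus lower than that in T-cell tissue in both KO sections and level with it in WT. Without Ldha, the other 9 genes summed to 1120, 928 and 1213 CPM in the medulla of KO1134, KO1308 and WT1101. Their sums in CD3-positive bins were 1334, 1094 and 1330 CPM, so that medulla was lower in all 3 sections. Ldha was at 0.667-fold (0.640 to 0.695), 0.810-fold (0.772 to 0.850) and 1.09-fold (1.04 to 1.14), lower in the medulla of both KO sections and higher in that of WT. Gapdh was lower in the medulla of all sections, at 0.803-fold, 0.511-fold and 0.487-fold, and so was Pgk1, at 0.562-fold, 0.713-fold and 0.847-fold. Slc2a1 was higher in all, at 1.73-fold (1.03 to 2.95), 1.61-fold (1.05 to 2.51) and 1.84-fold (1.06 to 3.01). Slc2a1 was the only 1 of the 10 genes past 1.5-fold upward in all 3 sections, where 12.2% of 13958 genes were, and 0 of 10 passed downward, where 4.21% did. Myeloid markers were higher in medulla than in CD3-positive bins too, at 2360, 1363 and 2106 CPM, and their part was not tested.

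In B-cell zones the 10 genes summed to 2076 CPM (2040 to 2112) in KO1134, 1776 (1712 to 1842) in KO1308 and 2359 (2183 to 2546) in WT1101, from 12964, 2928 and 662 UMIs. KO1308 was at 0.753-fold of WT, and KO1134 was at 0.880-fold but at 1.01-fold over UMIs without those of ribosomal proteins, mitochondria, immunoglobulins and haemoglobins, so that its direction depended on the scaling. The zone of WT1101 held more T-cell tissue, with 163 of its 303 bins passing the CD3 limit. Its T cell markers summed to 5691 CPM, against 3076 and 2146 CPM in KO1134 and KO1308, and its 3 B cell markers to 335 CPM, against 799 and 527 CPM. The part of this in the ratios to WT was not tested. Over 3444 and 3439 genes with enough counts in the zones, the median was 0.758-fold in KO1134 and 0.788-fold in KO1308. The median of the 10 genes was 0.966-fold in KO1134, where 9 of them were above the median of all genes, and 0.747-fold in KO1308, where 4 were. Slc2a1 and Hk2 had only 1 and 5 UMIs in the zone of WT1101. Over the CD3-positive bins of the same section the sum was 0.761-fold (0.743 to 0.780), 0.955-fold (0.915 to 0.996) and 1.02-fold (0.942 to 1.10). None of the 10 genes was past 1.5-fold in all 3 sections upward, where 3.95% of 13205 genes were, or downward, where 5.32% were. Hk1 and Pgk1 were low in the zone of KO1134, at 0.503-fold (0.438 to 0.578) and 0.498-fold (0.453 to 0.548). Hk2 went from 0.317-fold (0.198 to 0.498) in KO1134 to 1.71-fold (0.948 to 3.02) in KO1308. Ribosomal protein genes took 20.4% of the UMIs in the zone of KO1134, against 14.1% in its CD3-positive bins, and CPM share 1 total.

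**Figure D4:**
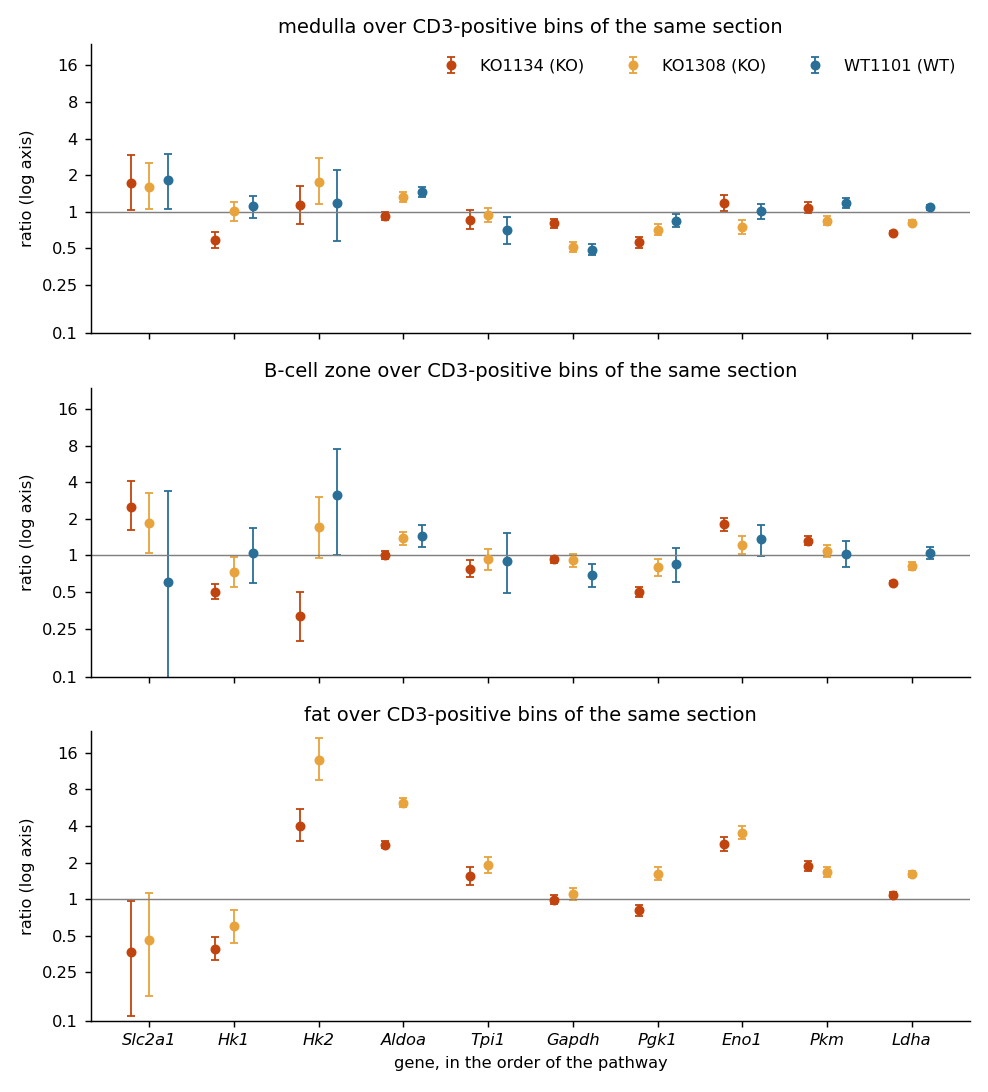
Ratio of each gene in medulla, B-cell zone or fat to the CD3-positive bins of the same section, on a log axis with 95% exact conditional intervals. Fat is shown for the KO sections, since WT1101 had 72 fat bins; there Hk2 and Aldoa reached 14.0-fold and 6.22-fold in KO1308, while Hk1 lay below 1 in both.

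Fat held the highest levels. The 10 genes summed to 3675 CPM (3599 to 3753) in the fat of KO1134 and 3935 (3840 to 4031) in that of KO1308, which is 1.35-fold (1.31 to 1.39) and 2.11-fold (2.05 to 2.19) of the CD3-positive bins of the same section. The few fat bins of WT1101 gave 2316 CPM (2021 to 2642), 1.00-fold (0.873 to 1.14) of their T-cell tissue. Their 6 adipocyte markers summed to 2201 CPM, against 5737 and 7098 CPM in the fat of the KO sections, their 6 T cell markers to 6487 CPM, against 1374 and 2088 CPM, and Ucp1 had no UMI. No comparison of fat between genotypes is drawn from them.

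The hexokinase transcripts of fat and T-cell tissue differed. Hk2 was at 58.9 CPM (49.6 to 69.5) in the fat of KO1134 and 110 (94.4 to 127) in that of KO1308, which is 4.03-fold (2.98 to 5.48) and 14.0-fold (9.65 to 21.0) of CD3-positive bins. Hk1 was lower there, at 43.8 CPM (35.8 to 53.04) and 31.4 (23.4 to 41.1), or 0.392-fold and 0.605-fold. Hk2 thus made up 57.4% (50.9 to 63.7) and 77.8% (71.9 to 82.9) of the UMIs of both hexokinases in fat, against 11.6% (9.07 to 14.5) and 13.1% (9.19 to 17.9) in CD3-positive bins and 20.4% and 20.9% in medulla. A share of UMIs of the same bins does not depend on the total count. In WT1101 the share was 9.30% (7.90 to 10.9) in CD3-positive bins and 9.91% (5.05 to 17.0) in medulla.

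Aldoa was at 866 CPM (829 to 904) and 1046 (997 to 1096) in fat, 2.82-fold (2.63 to 3.02) and 6.22-fold (5.69 to 6.79) of CD3-positive bins. Eno1 was 2.83-fold and 3.52-fold, Pkm 1.87-fold and 1.68-fold, and Tpi1 1.56-fold and 1.91-fold. Gapdh, by contrast, was at 0.990-fold (0.907 to 1.08) and 1.11-fold (0.991 to 1.25), and Ldha at 1.09-fold and 1.61-fold. In all, 5 of the 10 genes were past 1.5-fold upward in the fat of both KO sections, where 8.89% of 13064 genes were, and Slc2a1 and Hk1 were past it downward, where 39.8% were. Slc2a1 had only 5 and 6 UMIs in fat. Slc2a4 was at 88.4 CPM (76.8 to 101) and 156 (138 to 177) in fat, against 5.32 and 9.003 in CD3-positive bins.

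The fat of the KO sections held brown fat markers. Brown fat burns fuel for heat through Ucp1, and Ucp1 was at 508 and 1519 CPM there. Fat bins were split by whether 4 brown fat markers in the surrounding 5 × 5 bins reached 2650 CPM, their mean in the fat of both KO sections. This split was chosen after the values of fat had been seen. There were 303 brown-rich and 1500 brown-poor bins in KO1134, and 581 and 896 in KO1308. Mitochondrial UMIs took 20.4% and 20.6% of the brown-rich bins but 6.61% and 3.48% of the brown-poor bins, and CPM of other genes share the remainder.

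Hk2 was at 93.1 CPM in brown-rich and 43.4 in brown-poor fat of KO1134, a ratio of 2.14 (1.52 to 3.03), and at 174 and 32.0 in KO1308, a ratio of 5.43 (3.52 to 8.73). Hk1 went the other way, at 17.5 and 55.7 CPM in KO1134 and 16.5 and 49.4 in KO1308, ratios of 0.315 (0.162 to 0.567) and 0.334 (0.170 to 0.624). Eno1 was 2.82-fold (2.37 to 3.35) and 3.11-fold (2.55 to 3.81) in brown-rich over brown-poor fat, Pkm 2.25-fold and 1.88-fold, Gapdh 1.98-fold and 1.78-fold, and Aldoa 1.75-fold and 3.17-fold. Ldha differed least of these, at 1.04-fold (0.968 to 1.11) in KO1134 and 1.39-fold (1.27 to 1.53) in KO1308. The level of Hk2 in brown-poor fat was still 43.4 and 32.0 CPM, above the 14.6 and 7.82 CPM of CD3-positive bins. Brown-poor fat still held 552 and 226 CPM of the 4 brown fat markers, against 11.5 and 18.7 CPM in CD3-positive bins, and their part in this level was not tested.

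**Figure D5:**
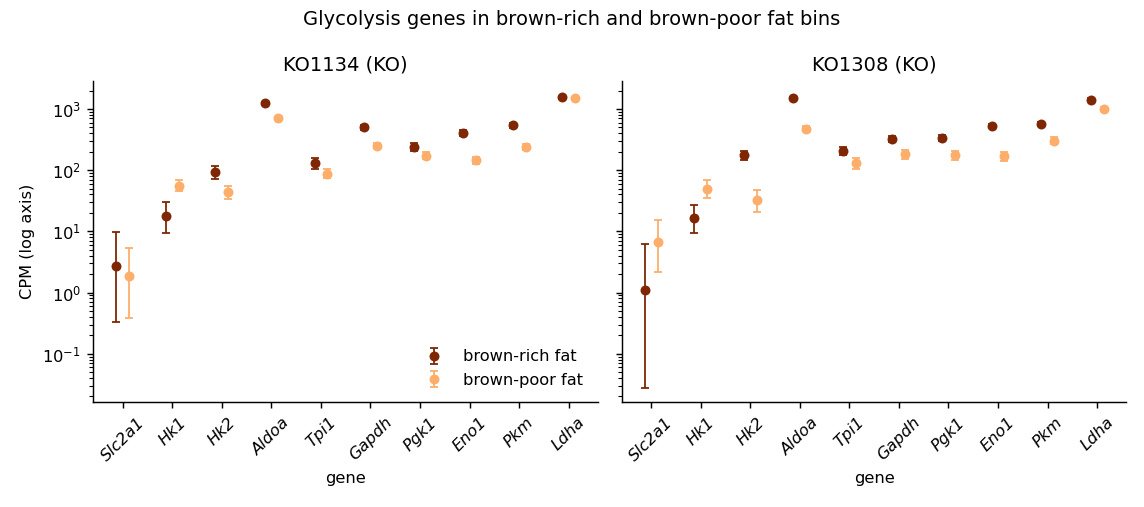
CPM of each gene on a log axis in brown-rich and brown-poor fat bins of the KO sections, with 95% exact Poisson intervals. Hk1 was lower and Hk2 higher in the brown-rich bins of both sections, and Slc2a1 rested on at most 5 UMIs a point.

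Over all tissue bins the shares of the compartments enter as well. Hk2 was at 15.6, 21.3 and 6.14 CPM, 2.54-fold and 3.47-fold of WT, but fat, which took 15.0% and 9.15% of the KO bins and 0.266% of the WT bins, held 28.8% and 48.5% of the Hk2 UMIs of the KO sections. Slc2a1 was at 8.997, 9.61 and 6.61 CPM, 1.36-fold (1.15 to 1.62) and 1.46-fold (1.19 to 1.77) of WT. The sum of the 10 genes was 1.12-fold and 0.842-fold of WT, close to the values in CD3-positive bins.

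Across 15 values, 1 for each section and compartment with the bins outside the areas included, the genes whose log2 CPM followed the sum of the 10 most closely among 7111 were Pdzd9 (Pearson r = 0.969), Ndufs7 (0.964), Ndufab1 (0.95), Ndufa6 (0.937), Ndufa13 (0.935), Adhfe1 (0.925), Hadha (0.923) and Sdhb (0.923). The points of a section share a library, and those of fat share its mitochondrial content, so these values are a description. The genes whose names begin with Nduf, and Sdhb, belong to the respiratory chain and Hadha to fatty acid oxidation. Ndufa6 was at 443, 264 and 314 CPM in CD3-positive bins of KO1134, KO1308 and WT1101 and at 771 and 841 CPM in the fat of the KO sections.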

How the data were processed

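Spatial RNA was measured in thymus sections, 2 of KO and 1 of WT. BSTMatrix and STAR, with GRCm38, were the authors' tools for the reads, and the authors deposited raw UMI counts for every gene at every spot, not normalised, with spot positions. Of the listed gene identifiers, 99.8% are in GENCODE M21. The removal of folded areas by the authors was not repeated. Counts were summed in bins of 27 µm and filtered as the report states, and connected groups under 200 bins were left out. CPM carry exact Poisson intervals, ratios exact conditional binomial intervals and shares exact binomial intervals, at 95%. No statistical test was made between genotypes, since there was 1 WT section, and bins are not replicates. A gene entered a share of calls over all genes from 20 UMIs in either of the groups of bins compared. It entered a median, or a share above WT, from 20 UMIs in both. Genes of the other lists needed 20 UMIs in every section. A window of 5 × 5 bins was used, and 1.5-fold served as the limit for a call in either direction.

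The text names the 10 members, of each other list the 2 highest and the 2 lowest genes by the mean log2 ratio to WT, the 8 genes most like the sum, markers, Trp53 and copies of members. Of the list linking p53 to glucose use, 1 gene under this rule and the list's counts of calls are not reported here. The members and lists were chosen with earlier results of these data known. Genes of ribosomal proteins (77 genes) and other classes were left in the total, and leaving them out, other bin widths, limits, windows and CD3 rules were tried. Between 54718 and 58533 spot barcodes were common to a pair of sections, of 1658021 to 1691639 listed for each. Ratios and intervals were checked on simulated counts. Python 3.11.15 with numpy 2.4.6, scipy 1.17.1, pandas 2.3.3 and matplotlib 3.10.9 was used.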

Additional observations from a re-analysis of the deposited data

Results flagged for a closer look

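Ldha moved in opposite directions between medulla and CD3-positive bins of the genotypes. Its level in medulla was 0.667 times that in CD3-positive bins in KO1134 and 0.810 times in KO1308, but 1.09 times in WT1101, each past its counting interval. In WT1101 this was 1074 against 985 CPM, while its CD3-positive bins ranged from 906 CPM at the tissue edge to 1004 CPM inside. The difference between genotypes was not tested, because there was 1 WT section.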

How the results depend on the processing

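Values here are the mean of both KO ratios to WT unless said otherwise. Of 98 values of the sums and counts recomputed under other settings, 87 moved by less than the spread between sections or, for counts, stayed within 1.5-fold. This is a wide limit, since the spread of both KO ratios was 0.265 in CD3-positive bins and 0.198 over all tissue. A count within 1.5-fold may also hold other genes. The 87 values are therefore no measure of how firm a direction is. The sums in CD3-positive bins and over all tissue, 0.991 and 0.982 in the report, lay near 1 and passed it under some settings, to 1.03 and 1.04 at most when no section was left out. For fat the report draws no comparison between genotypes, since WT fat bins carried T cell markers; its ratio to WT, 1.64 by the settings of the report, is given only to show its spread and was 1.74 with bins of 20 µm, 1.5006 with bins of 50 µm, 1.83 with at least 500 genes per bin, 1.78 with windows of 3 × 3 bins, 1.76 with areas at 3 times the mean marker level, 1.73 over UMIs without ribosomal protein, mitochondrial, immunoglobulin and haemoglobin genes, 1.84 in bins of 1000 to 2000 UMIs and 1.87 without Ldha, a setting added after seeing the data. WT fat held 22 to 93 bins in these. Over UMIs without those gene classes the B-cell zone sum was 0.910 instead of 0.816, and 5 instead of 3 genes passed 1.5-fold in KO1134, with Aldoa and Ldha added. In CD3-positive bins of the cortex area, of which KO1134 had 45, 6 genes passed, with Slc2a1, Tpi1 and Pkm added as lower; these bins are too few to read a lower level of Slc2a1 from. The sum of KO1134 in B-cell zones was 1.01-fold instead of 0.880-fold of WT over UMIs without those classes, a value added after seeing the data. In CD3-positive bins of the cortex area the mean ratios of Hk2 and Slc2a1 were 3.70 and 0.593 instead of 1.9962 and 1.14, the single genes that moved by more than the spread between sections.

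Leaving out 1 KO section, the ratio of the sum to WT was 0.804 or 1.18 in CD3-positive bins, 0.677 or 0.896 in medulla, 0.753 or 0.880 in B-cell zones, 1.59 or 1.70 in fat, of which no comparison is drawn, and 0.842 or 1.12 over all tissue. The direction in CD3-positive bins and over all tissue thus depended on which KO section was left out. Leaving out any 1 section, the mean ratio to CD3-positive bins was 0.791 to 0.907 for medulla, 0.852 to 0.986 for B-cell zones and 1.16 to 1.69 for fat. No paired analysis was possible because the KO and WT sections share no animal and the result comes from no test. Depth limits Slc2a1, Hk2 and several genes of the other lists, among them Tigar, Slc2a4, Pgam2, Ankrd37, Rrad and Pdk2, each with under 100 UMIs in CD3-positive bins of both KO sections.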
